A study of Mus musculus with 6 samples.

Results

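Expression of 10 genes of the Hippo pathway and its output was followed in KP2 cells: Yap1, Wwtr1 (which encodes TAZ), Tead1, Lats1, Lats2, Ajuba, Amotl2, Ankrd1, Axl and Igfbp3. They were matched by mouse symbol to the Ensembl identifiers of the deposited count files, and all 10 of 10 were found among 41388 counted genes. KP2 is a pancreatic cancer line derived from a KPC mouse of strain C57BL/6J, fewer than 10 passages old by its label and grown in DMEM with serum. There were 3 groups of 2 RNA-seq libraries. The rescue group carried an IRAK4 knockout plus a rescue that the labels do not describe further. The knockout (KO) group had been infected with lentiCRISPR vectors carrying guide RNAs against IRAK4, and the labels do not say whether it was 1 clone or a pool. The third group was wild type, and the labels name no vector in it. IRAK4 is a kinase downstream of the Toll-like receptors and the interleukin-1 receptor. Nothing in the labels says that the replicates were separate cultures, so each p-value reflects the spread between libraries alone, and that spread may be technical.

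In the Hippo pathway, LATS kinases phosphorylate the co-activators YAP and TAZ, which are then held in the cytoplasm and degraded. Unphosphorylated YAP and TAZ enter the nucleus, bind DNA through TEAD factors and raise transcription of genes such as Ankrd1, Ccn1 and Ccn2. Some targets, among them Lats2 and Amotl2, encode inhibitors and close a feedback loop. In mouse models YAP is needed for the growth of pancreatic ductal adenocarcinoma. Since control of YAP and TAZ is largely by protein phosphorylation, transcript levels do not measure their activity.

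Libraries held 7605328 to 11505983 counts. Irak4, the targeted gene, had 491 and 211 CPM in the rescue libraries, 20.4 and 21.7 CPM in the KO libraries and 37.8 and 37.6 CPM in the wild-type libraries. Its difference between KO and wild type, -0.84 on the log2 scale, did not pass the test with all 3 groups in the fit (adjusted p = 0.0573). It passed in 6 of 14 other fits at a like size, among them the fit of those 2 groups alone (-0.85, adjusted p = 4.23e-07), the fits without either rescue library (adjusted p = 1.7e-07 and 7.47e-07) and the replicate block (-0.87, adjusted p = 0.0223). Its level cannot separate the endogenous transcript from that of a rescue construct. The ductal and epithelial markers fitted the labelled cell type in part. Krt8, Krt18, Krt19, Cdh1 and Sox9 were expressed in all libraries, while Epcam had at most 0.119 CPM. The summed level of the 8 epithelial markers was 4770 to 5629 CPM in the rescue, 3896 to 3999 CPM in the KO and 6717 to 7029 CPM in wild type, so it moved with the groups, and its part in the results below was not tested. Markers of other cells were low. The 7 immune markers summed to 4.39 to 4.81 CPM in the rescue, 4.35 to 4.42 CPM in the KO and 4.03 to 4.49 CPM in wild type, mostly from Cd68, while Ptprc reached at most 0.253 CPM. The 5 fibroblast markers summed to 3.04 to 3.32 CPM in the rescue, 2.52 to 2.92 CPM in the KO and 0.711 to 1.66 CPM in wild type, with Dcn and Lum at 0, and the 4 acinar markers to at most 2.29 CPM, with Cpa1 at 0. The summed endothelial list was 14.9 to 38.0 CPM in the rescue, 15.9 to 30.7 CPM in the KO and 4.62 to 5.37 CPM in wild type, most of it from Cdh5, while Pecam1 reached at most 0.253 CPM. Kdr of the same list went the other way. It had 1.54 and 1.66 CPM in wild type and at most 0.133 CPM in the rescue and 0.114 CPM in the KO. The fibroblast and endothelial sums were lower in wild type, the endothelial one through Cdh5, and their part in the results was not tested. In bulk RNA, fewer cells of a type and less RNA per cell cannot be told apart.

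The promoters of the members were searched for CATTCC, the core of the M-CAT element that TEAD factors bind, on either strand (GGAATG on the other). RefSeq promoters on GRCm38.p6 (250 bases before to 50 after the start) were given for 9 of the 10 members. The hexamer occurred in 7 of these 9 genes, against 16.6% of 27025 genes with at least 1 promoter in the table and 14.7% of 32851 promoters. Among other YAP and TAZ targets, 3 of the 10 genes in the table held it. Several members are known YAP and TAZ targets, so the count is a description of chosen genes. The Lats1 and Igfbp3 promoters held no match, which says only that these letters are absent from the window. The matches are printed because they place the same hexamer in genes that fell, in one that rose and in ones that were not called. The 30 bases around each match are written 5′ to 3′ on the gene's strand, with the hexamer in capitals.

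Ankrd1, chr19:36120037-36120066, minus strand, hexamer 210 bases before the start: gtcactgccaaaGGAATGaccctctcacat

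Ankrd1, chr19:36119950-36119979, minus strand, hexamer 123 bases before the start: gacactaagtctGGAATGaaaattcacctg

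Amotl2, chr9:102717727-102717756, plus strand, hexamer 65 bases before the start: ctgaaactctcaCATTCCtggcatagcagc

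Wwtr1, chr3:57576029-57576058, minus strand, hexamer 136 bases before the upstream start: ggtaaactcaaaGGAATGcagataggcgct

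Yap1, chr9:8004720-8004749, minus strand, hexamer 141 bases before the start: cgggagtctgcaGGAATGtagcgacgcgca

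Axl, chr7:25788949-25788978, minus strand, hexamer 233 bases before the start: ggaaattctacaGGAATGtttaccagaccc

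Ajuba, chr14:54577819-54577848, minus strand, hexamers 186 and 164 bases before the start: aCATTCCacagtgcccctccgcgCATTCCa

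Lats2, chr14:57746102-57746131, minus strand, hexamer in the first bases after the 5′-most start in the RefSeq table (the annotated gene reaches farther 5′): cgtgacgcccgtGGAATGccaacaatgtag

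The 250 bases upstream of the start follow for Igfbp3, which fell with no match, and for Ajuba, which was not called and holds a pair of matches.

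Igfbp3, chr11:7213924-7214173, minus strand: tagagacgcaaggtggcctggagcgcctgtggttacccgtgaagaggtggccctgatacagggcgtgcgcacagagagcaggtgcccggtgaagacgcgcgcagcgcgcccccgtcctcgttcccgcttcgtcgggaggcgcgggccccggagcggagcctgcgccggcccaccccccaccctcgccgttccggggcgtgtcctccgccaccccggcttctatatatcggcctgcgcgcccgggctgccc

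Ajuba, chr14:54577662-54577911, minus strand: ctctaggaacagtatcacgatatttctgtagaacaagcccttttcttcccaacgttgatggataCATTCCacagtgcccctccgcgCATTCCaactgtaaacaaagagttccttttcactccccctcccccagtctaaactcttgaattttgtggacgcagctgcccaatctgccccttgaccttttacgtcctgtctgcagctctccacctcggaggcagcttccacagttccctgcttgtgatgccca

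All 10 members passed the filter on low counts, with 440 or more counts in every library. In the KO against wild type, 5 of the 10 fell (Ankrd1, Igfbp3, Amotl2, Wwtr1 and Tead1) and 1 rose (Yap1), where 23.5% of 12339 genes tested fell and 23.2% rose. In the rescue against the KO, 4 rose (Ankrd1, Igfbp3, Amotl2 and Wwtr1) and 0 fell, against a background of 8.35% rising and 5.88% falling. No member fell there at an unadjusted p under 0.05 either, with 0 also by DESeq2. In the rescue against wild type, 1 was lower (Wwtr1), against 12.0% of all genes, and 0 were higher in edgeR (10.2% of all genes), at an unadjusted p under 0.05 or by DESeq2. In either direction 46.8%, 14.2% and 22.2% of all genes were called in the 3 comparisons, in the same order. A gene was called at an adjusted p under 0.05 in edgeR's quasi-likelihood test, with Benjamini-Hochberg adjustment over all genes tested. The median log2 fold change over the 10 members was -0.29 in the KO against wild type, 0.27 in the rescue against the KO and -0.01 in the rescue against wild type, where all genes tested had 0.01, 0.00 and 0.01. The comparisons share libraries (the KO pair enters the first and the second, the wild-type pair the first and the third), so they are given side by side and not as separate lines of evidence.

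Whether the libraries of 2 groups overlapped is given for each member, and non-overlap was common among all genes. In the KO against wild type 8 of the 10 members did not overlap, 1 higher and 7 lower, where 76.6% of all genes did not (39.1% higher and 37.6% lower). Between rescue and KO none of the 10 overlapped, 9 higher and 1 lower, where 59.4% of all genes did not overlap (29.3% higher and 30.1% lower). Between rescue and wild type 6 did not overlap, 4 higher and 2 lower, where 61.6% of all genes did not (31.2% higher and 30.4% lower).

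**Figure D1:**
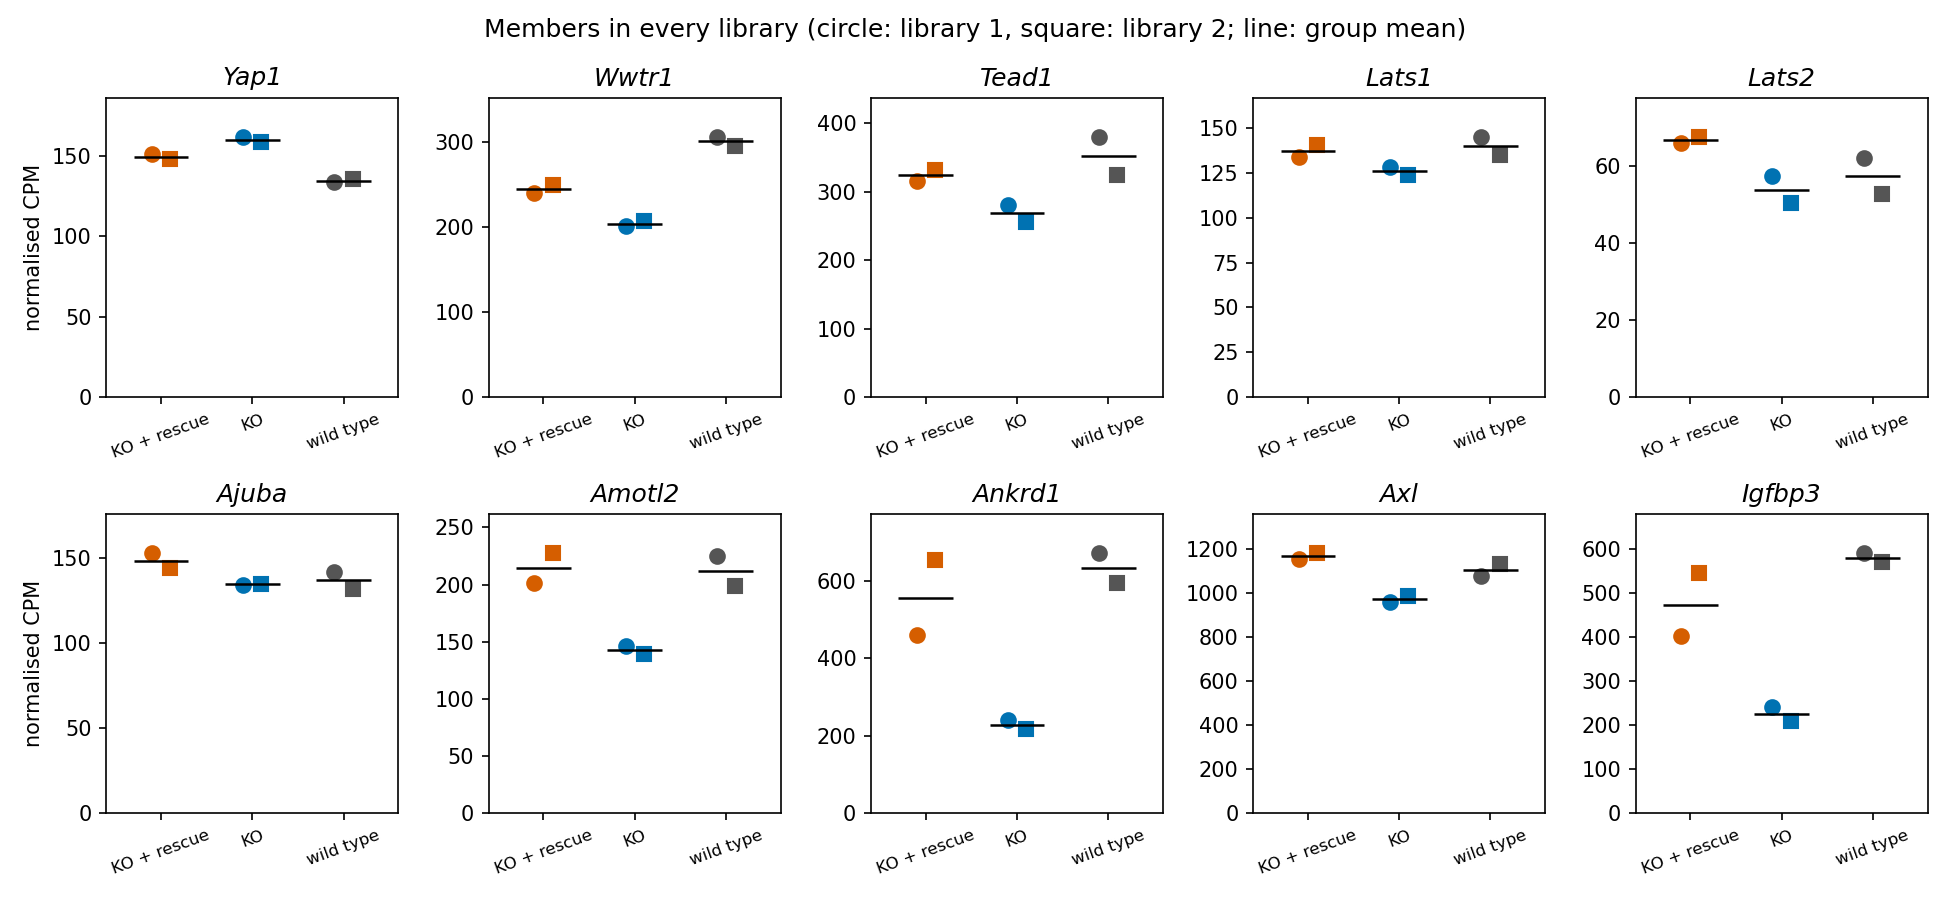
Normalised CPM (y axes, linear from 0) of the 10 members in the rescue, KO and wild-type libraries; circles are library 1, squares library 2 and lines the group means. Ankrd1, Igfbp3, Amotl2, Wwtr1, Tead1, Lats1 and Axl were lower in both KO libraries than in all 4 others, and Yap1 was higher. Of these, Lats1 and Axl were not called in the KO against wild type.

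The co-activators went in opposite directions in the KO. Wwtr1 (chromosome 3, 57455649 to 57575910), which encodes TAZ, had 240.0 and 250.5 CPM in the rescue libraries, 202 and 207 CPM in the KO libraries and 306 and 296 CPM in the wild-type libraries. No library of one group overlapped those of another, and the rescue lay between KO and wild type. Wwtr1 fell in the KO by 0.56 on the log2 scale (SE 0.08, edgeR adjusted p = 0.000176), a level of 0.678 of wild type. It was 0.26 higher in the rescue than in the KO (SE 0.08, adjusted p = 0.0468) and stayed below wild type by a log2 fold change of -0.30 (SE 0.08, adjusted p = 0.0197). The rise in the rescue was not called in 10 of 14 other fits, where its value ranged from 0.23 to 0.28 and its adjusted p from 0.0536 to 0.207. The difference of the rescue from wild type was not called without the first wild-type library (-0.27, adjusted p = 0.16), without the second (-0.32, adjusted p = 0.0903) or without the first rescue library (-0.27, adjusted p = 0.0513).

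Yap1 (chromosome 9, 7931999 to 8004596), which encodes YAP, had 151 and 148 CPM in the rescue libraries, 162 and 158 CPM in the KO libraries and 134 and 136 CPM in the wild-type libraries. Its order was the reverse of that of Wwtr1, with the KO highest and no overlap between groups. It rose in the KO by a log2 fold change of 0.25 (SE 0.08, adjusted p = 0.0202). This call was lost without any 1 of the KO and wild-type libraries (0.23 to 0.26, adjusted p = 0.0757 to 0.129) and with DESeq2 (0.24, adjusted p = 0.074). Neither the rescue against the KO (-0.10, 95% interval -0.27 to 0.07) nor the rescue against wild type (0.15, interval -0.02 to 0.32) passed the test. An exon of Yap1 overlaps Gm20416 on the other strand, and with no stated strand setting their reads cannot be told apart.

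Per length, TAZ transcripts outnumbered YAP transcripts in every library. RPKM divides by the counted gene length, 4779 bases for Wwtr1 and 9257 for Yap1, and which transcripts were expressed was not tested. The ratio of the deposited RPKM of Wwtr1 to that of Yap1 was 3.08 and 3.28 in the rescue, 2.42 and 2.53 in the KO and 4.44 and 4.23 in wild type. The groups did not overlap, and the ratio needs no scaling between libraries. The summed RPKM of the pair was 67.1 and 67.6 in the rescue, 62.2 and 63.4 in the KO and 74.6 and 74.0 in wild type. Their sum therefore followed the more abundant Wwtr1.

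**Figure D2:**
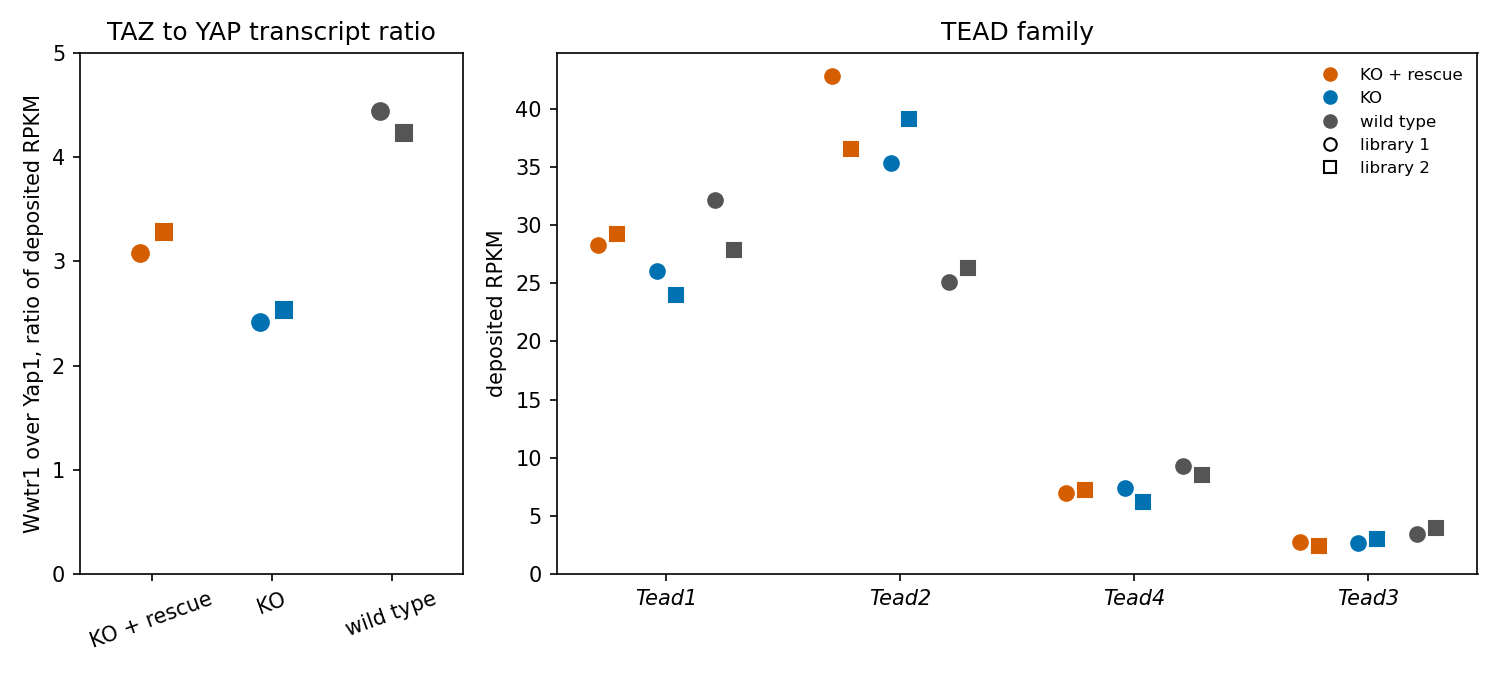
Left, the ratio of Wwtr1 to Yap1 in deposited RPKM per library, at 3.08 and 3.28 in the rescue, 2.42 and 2.53 in the KO and 4.44 and 4.23 in wild type. Right, the deposited RPKM of the TEAD genes per library (circles library 1, squares library 2), where Tead2 lies above Tead1 in the rescue and KO libraries and below it in the wild-type ones.

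Tead1 (chromosome 7, 112679318 to 112906807), a DNA-binding partner of YAP and TAZ, had 316 and 332 CPM in the rescue, 281 and 257 CPM in the KO and 380.2 and 324 CPM in wild type. Both KO libraries were below all others, and the rescue overlapped wild type. Tead1 fell in the KO by 0.39 on the log2 scale (SE 0.10, edgeR adjusted p = 0.00612), a call lost without the second KO library (-0.33, adjusted p = 0.0658) or the first wild-type library (-0.27, adjusted p = 0.104). Its difference in the rescue against the KO, 0.27 (SE 0.10), had an adjusted p of 0.084 and was called in 3 of 14 other fits. Against wild type the rescue differed by -0.12 (95% interval -0.33 to 0.09).

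The TEAD family did not move as one. Tead2 had 198 and 173 CPM in the rescue, 158 and 174 CPM in the KO and 123 and 127 CPM in wild type. It rose in the KO (0.41 on the log2 scale, SE 0.09, adjusted p = 0.00385) and was also higher in the rescue than in wild type (0.56, SE 0.09, adjusted p = 0.00134). Tead3 (-0.52, adjusted p = 0.0152) and Tead4 (-0.51, adjusted p = 0.00568) fell. The Tead3 call was lost with DESeq2 (adjusted p = 0.0782), when KO library 1 was left out (-0.44, adjusted p = 0.113) or wild-type library 2 (-0.42, adjusted p = 0.132). The Tead4 call was lost without the second KO library (-0.39, adjusted p = 0.0583) or the first wild-type library (-0.43, adjusted p = 0.0658). Per length, Tead2 made up 52.9% and 48.5% of the summed Tead1 to Tead4 RPKM in the rescue, 49.4% and 54.1% in the KO and 35.9% and 39.5% in wild type. Tead1 made up 35.0% and 38.8% in the rescue, 36.5% and 33.1% in the KO and 45.9% and 41.8% in wild type. By RPKM, Tead2 was thus the higher of the pair in the rescue and KO libraries and Tead1 in the wild-type libraries. This order rests on the counted gene lengths, since Tead1 had more CPM than Tead2 in every library. The summed RPKM of the 4 genes was 80.8 and 75.4 in the rescue, 71.4 and 72.3 in the KO and 70.0 and 66.6 in wild type. Tead2 shares exon sequence with Cd37 on the other strand, which limits its count in the same way as for Yap1.

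The LATS kinases, which phosphorylate YAP and TAZ, were not called in any comparison with all libraries and no block. Lats1 (chromosome 10, 7681209 to 7716458) had 134 and 140.4 CPM in the rescue, 128 and 124 CPM in the KO and 145 and 135 CPM in wild type. The KO libraries were the lowest, but their log2 difference from wild type was -0.15 (95% interval -0.33 to 0.03, adjusted p = 0.162). The rescue differed from the KO by 0.12 and from wild type by -0.03. Lats2 (chromosome 14, 57642077 to 57758388), which is also a YAP target, had 66.0 and 67.5 CPM in the rescue, 57.5 and 50.3 CPM in the KO and 62.0 and 52.9 CPM in wild type. KO and wild type overlapped (-0.08, interval -0.31 to 0.15), and both rescue libraries were above the other 4. The rescue differed from the KO by 0.30 (interval 0.07 to 0.53, adjusted p = 0.0762; called in 1 of 14 other fits, at 0.31 with an adjusted p of 0.0286 under a block with the rescue numbers crossed) and from wild type by 0.22 (interval -0.01 to 0.45). Per length, Lats1 was the more abundant kinase, at 2.03 to 2.08 times the RPKM of Lats2 in the rescue, 2.23 to 2.46 times in the KO and 2.34 to 2.55 times in wild type.

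The members that restrain the pathway or its kinases differed from each other. Amotl2 (chromosome 9, 102716672 to 102733418), a junction protein that binds YAP and is a target of it, had 201 and 227 CPM in the rescue, 146 and 139.6 CPM in the KO and 225 and 199 CPM in wild type. The KO libraries stood apart below the rest, and rescue and wild type overlapped. Amotl2 fell in the KO to 0.675 of wild type (-0.57 on the log2 scale, SE 0.09, edgeR adjusted p = 0.000533). It was 1.497-fold higher in the rescue than in the KO (0.58, SE 0.09, adjusted p = 0.00382), and without the second KO library that difference was 0.54 with an adjusted p of 0.06. The rescue differed from wild type by 0.02 (95% interval -0.19 to 0.22). Ajuba (chromosome 14, 54567469 to 54577661), a LIM protein that inhibits LATS kinases, had 153 and 144 CPM in the rescue, 134 and 135 CPM in the KO and 142 and 132 CPM in wild type. KO and wild type overlapped, and the KO difference of -0.02 had an interval of -0.20 to 0.16. The rescue differed from the KO by 0.14 (interval -0.04 to 0.32) and from wild type by 0.12 (interval -0.06 to 0.30).

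The largest changes among the members were those of the target genes Ankrd1 and Igfbp3. Ankrd1 (chromosome 19, 36111965 to 36119844), a nuclear ankyrin repeat protein that is a standard readout of YAP and TAZ, had 461 and 652 CPM in the rescue, 240.5 and 218 CPM in the KO and 671 and 595 CPM in wild type. Both KO libraries were below all others, and the second rescue library lay among the wild-type values. The gene was 2.76-fold lower in the KO (-1.46 on the log2 scale, SE 0.14, edgeR adjusted p = 1.52e-05) and 2.43-fold higher in the rescue than in the KO (1.28, SE 0.14, adjusted p = 0.00104). Both calls held in all 14 other fits. The rescue was 0.19 below wild type on the log2 scale (-0.19, 95% interval -0.49 to 0.12, adjusted p = 0.372), and -0.46 without the second rescue library (adjusted p = 0.0017).

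Igfbp3 (chromosome 11, 7206086 to 7213923), a secreted protein that binds insulin-like growth factors, had 401 and 545 CPM in the rescue, 241 and 210.2 CPM in the KO and 589 and 569 CPM in wild type. The 3 groups did not overlap, and the rescue lay between the others. Igfbp3 was 2.56-fold lower in the KO (-1.36, SE 0.13, edgeR adjusted p = 1.42e-05) and 2.09-fold higher in the rescue than in the KO (1.07, SE 0.13, adjusted p = 0.00143), again in all 14 other fits. Against wild type the rescue stood at -0.29 (interval -0.57 to -0.01, adjusted p = 0.125), and at -0.53 without the second rescue library (adjusted p = 0.000406). In both Ankrd1 and Igfbp3 the second rescue library was the higher, while Irak4 was higher in the first, at 491 against 211 CPM.

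Axl (chromosome 7, 25757273 to 25788705), a receptor tyrosine kinase and YAP target, had 1154 and 1181 CPM in the rescue, 959 and 989 CPM in the KO and 1079 and 1134 CPM in wild type. The KO libraries were the lowest, without overlap. The differences were small and not called: -0.18 in the KO against wild type (95% interval -0.36 to -0.002, edgeR adjusted p = 0.09) and 0.26 in the rescue against the KO (interval 0.08 to 0.44, adjusted p = 0.0566). They passed in 2 and in 4 of 14 other fits, with adjusted p down to 0.047 and 0.0233. The rescue differed from wild type by 0.08 (interval -0.10 to 0.26).

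**Figure D3:**
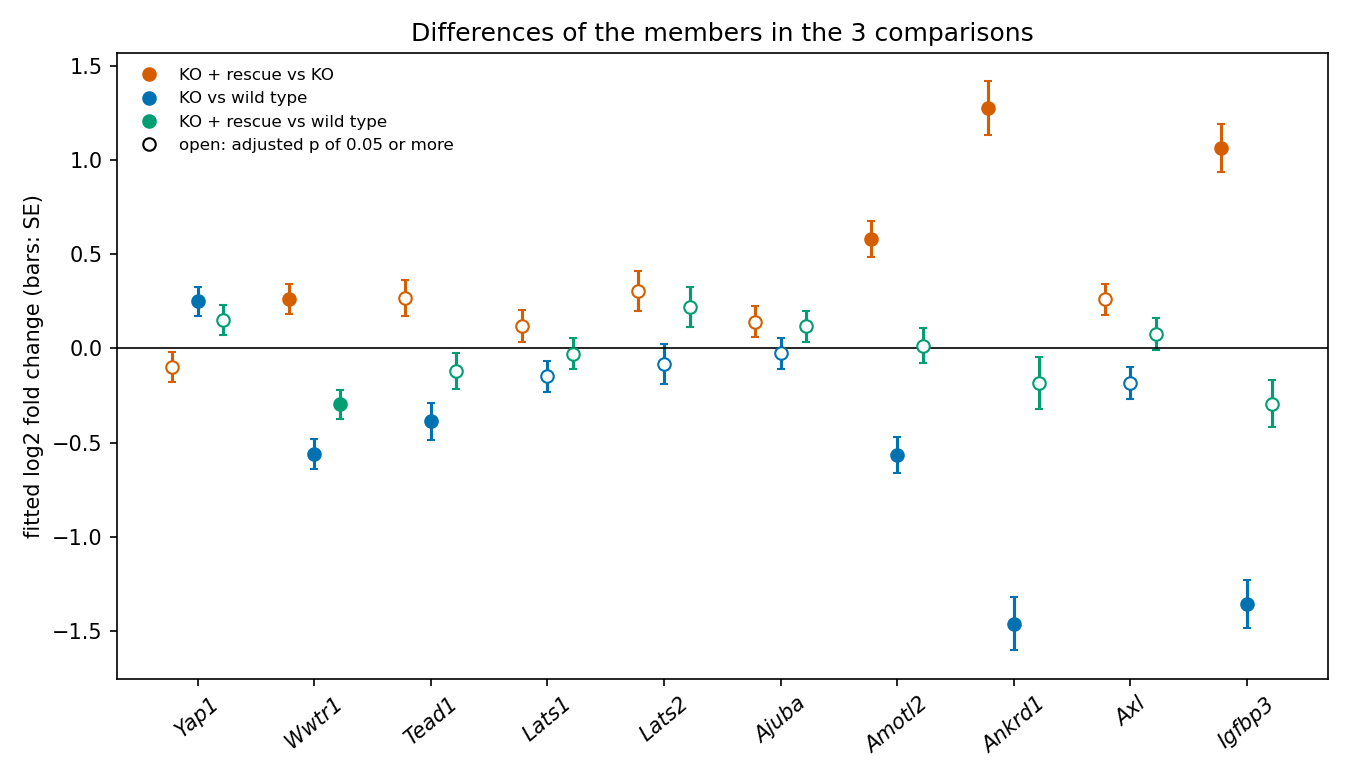
Fitted log2 fold changes (y axis) with standard errors of the 10 members for the rescue against the KO, the KO against wild type and the rescue against wild type; filled points passed an adjusted p of 0.05. Ankrd1 (-1.46) and Igfbp3 (-1.36) have the lowest values in the KO, and their values in the rescue against wild type are -0.19 and -0.29.

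Per length, the order of the members changed with the groups. By mean deposited RPKM in wild type it ran Ankrd1 (343), Axl (211), Igfbp3 (177), Wwtr1 (60.4), Ajuba (37.4), Amotl2 (32.3), Tead1 (29.99), Lats1 (18.3), Yap1 (13.9) and Lats2 (7.53). Amotl2 and Tead1 overlapped there, and the other neighbours did not. In the KO, Axl (202) stood above Ankrd1 (136), Yap1 (18.08) and Lats1 (18.06) overlapped, and Tead1 and Amotl2 (23.8) overlapped. In the rescue Ankrd1 (314) was again first, ahead of Axl (232).

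Likeness of pattern was described by Pearson's correlation of log2 CPM over the 6 libraries, which share the 3 groups. Ankrd1 was most like Klf2 (0.999), Fam110c (0.998) and Inhba (0.998). Wwtr1 was most like Vill, Shtn1 and Tnks2 (0.997 to 0.999), and Yap1 most like Rtel1, Rpl28 and Timeless (0.999 each). Tead1 was closest to Bicra (0.996), and Axl to Tnfrsf22 (0.993). Such values were common: 532 genes exceeded 0.95 for Ankrd1, 850 for Yap1 and 24 for Axl.

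Other YAP and TAZ targets were those of a published target signature, listed from memory and without the members above. Of 17 such genes, all tested, 14 fell in the KO and 0 rose. Their median log2 fold change was -0.66 against 0.01 for all genes tested, of which 23.5% fell and 23.2% rose. Without Nt5e and Ccdc80, which passed the filter on low counts only through wild type and so had to be lower elsewhere, 12 of 15 fell, with a median of -0.55. At an unadjusted p under 0.05, and by DESeq2, 0 rose as well. F3, which encodes tissue factor, had 173 and 221 CPM in the rescue, 109 and 136 CPM in the KO and 608 and 573 CPM in wild type. It fell by 2.27 on the log2 scale in the KO (SE 0.13, adjusted p = 4.73e-07), the lowest adjusted p of the list. Ccn1, a matricellular protein and classical YAP target, had 470.3 and 576 CPM in the rescue, 292 and 235 CPM in the KO and 704 and 666 CPM in wild type (KO against wild type -1.38, SE 0.12, adjusted p = 8.67e-06). Crim1, a transmembrane regulator of BMP signals, averaged 150.5 ± 17.3 CPM in the rescue, 97.6 ± 1.46 CPM in the KO and 215 ± 23.4 CPM in wild type (SD, n = 2 each; KO against wild type -1.14, edgeR adjusted p = 1.09e-05). The kinase gene Nuak2 averaged 16.7 ± 1.44 CPM in the rescue, 12.2 ± 0.52 CPM in the KO and 26.4 ± 0.90 CPM in wild type (SD, n = 2 each; -1.11, edgeR adjusted p = 6.15e-05). Nt5e, the ectonucleotidase CD73, had 6 and 10 counts in the rescue, 5 and 4 in the KO and 38 and 57 in wild type. Fjx1 (0.17), Ptpn14 (-0.13) and Tgfb2 (0.08) were not called. The summed epithelial markers were lowest in the same KO libraries, and their part in this was not tested.

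Of these 17 genes, 5 rose in the rescue against the KO and 0 fell, with 0 lower also at an unadjusted p under 0.05 and by DESeq2. Their median was 0.25, and 8.35% of all genes tested rose and 5.88% fell. Ccn2, which encodes the matricellular protein CTGF, had 516 and 852 CPM in the rescue, 305 and 241 CPM in the KO and 701 and 644 CPM in wild type. It was 1.32 higher on the log2 scale in the rescue than in the KO (SE 0.19, adjusted p = 0.0025) and 1.30 lower in the KO than in wild type (-1.30, SE 0.19, adjusted p = 0.000218). The others that rose were Ccn1 (0.99, adjusted p = 0.0015), Crim1 (0.62, adjusted p = 0.00437), the growth arrest gene Gadd45a (0.73, adjusted p = 0.00547) and F3 (0.69, adjusted p = 0.00736). With the first KO library left out 3 rose, and F3 (adjusted p = 0.0652) and Gadd45a (adjusted p = 0.0514) lost their calls. With the second left out Crim1 lost its call (adjusted p = 0.0598). Against wild type, 10 of the 17 were lower in the rescue, where 12.0% of all genes were, and 4 were lower without the first wild-type library. Without Nt5e and Ccdc80 the count was 8 of 15. F3 was among these 10, at a log2 fold change of -1.59 (SE 0.13, adjusted p = 6.58e-06), whereas Ccn2 stood at 0.03 (95% interval -0.38 to 0.43). Exons of Ccn2, Crim1, Foxf2, Gadd45a, Ptpn14 and Tgfb2 each overlap a gene on the other strand.

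**Figure D4:**
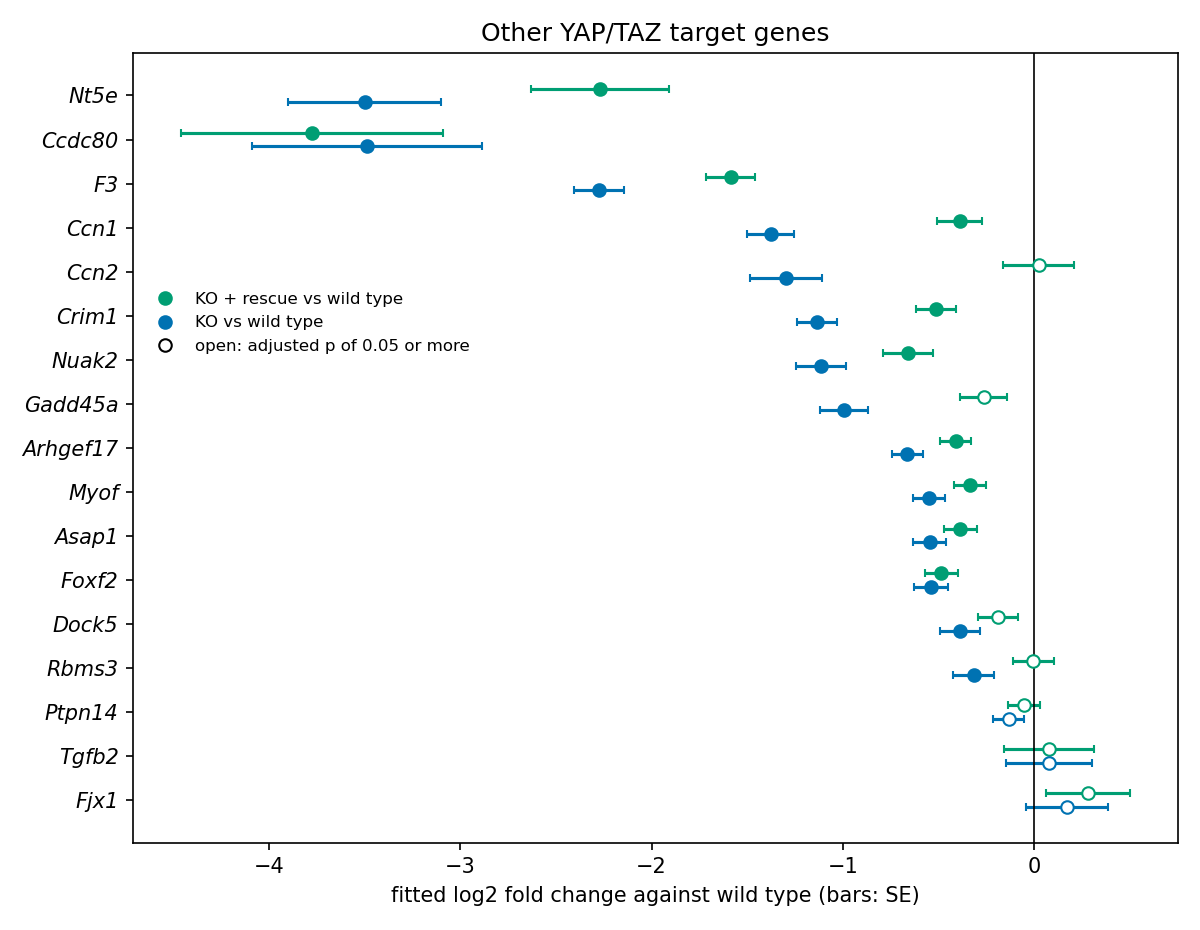
Fitted log2 fold changes against wild type (x axis, bars are standard errors) of the 17 other target genes, for the rescue and for the KO; filled points passed an adjusted p of 0.05. All 14 called KO values lie left of 0. Nt5e (-3.50) and Ccdc80 passed the filter on low counts only through wild type and so had to be lower elsewhere. Without them 12 of 15 fell in the KO, from F3 at -2.27 to Rbms3 at -0.31. The Rbms3 call was lost in 7 of 14 other fits, among them DESeq2 (adjusted p = 0.128), and the Dock5 call in 2. Ccn2 in the rescue lies at 0.03.

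Of 15 genes of the Hippo kinase core and its scaffolds, 7 fell in the KO and 1 rose. Among all genes 23.5% fell, 23.2% rose and 46.8% were called either way. The median of the list was -0.16. Frmd6, a FERM-domain protein upstream of the kinases, had 56.0 and 86.3 CPM in the rescue, 41.9 and 38.0 CPM in the KO and 114 and 105 CPM in wild type (KO against wild type -1.45, SE 0.16, edgeR adjusted p = 3.5e-05). Stk3, which encodes MST2, had 57.1 and 64.8 CPM in the rescue, 50.7 and 44.6 CPM in the KO and 79.7 and 78.3 CPM in wild type (-0.72, SE 0.10, adjusted p = 0.000149). Map4k4 (-0.47, adjusted p = 0.000598) and Stk38l (-0.70, adjusted p = 0.00698) also fell, both kinases of the extended pathway. Taok2, which activates MST kinases, rose (0.44, adjusted p = 0.00187). Its paralogues and Stk4, Nf2 and Mob1a were not called. The fallen members numbered 3 without the first KO or the first wild-type library, 4 without the second KO or the second wild-type library and 4 with a replicate block. Frmd6 (0.83, adjusted p = 0.00966) and Stk3 (0.35, adjusted p = 0.0421) rose in the rescue against the KO. Frmd6 had an adjusted p of 0.0956 without the second KO library, and Stk3 was not called in 8 of 14 other fits. No gene of this list fell there in edgeR or by DESeq2, and 1 had an unadjusted p under 0.05. Among all genes, 8.35% rose and 5.88% fell in the rescue against the KO.

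LATS inhibitors and the STRIPAK phosphatase complex, which dephosphorylates MST kinases, changed in both directions, as did the genes tested as a whole. Of 10 tested among 12, 5 fell and 2 rose in the KO, against 23.5% and 23.2% of all genes, with a median of -0.31. Stk25 (-0.62, adjusted p = 0.000148) and Stk24 (-0.63, adjusted p = 0.000158), kinases of the STRIPAK complex, fell. So did Siah2, a ubiquitin ligase that targets LATS2 (-0.74, adjusted p = 0.000522), and Wtip, a relative of Ajuba with 2.02 ± 0.86 CPM in the KO and 4.26 ± 1.19 CPM in wild type (SD, n = 2 each; edgeR adjusted p = 0.0262). Wtip lost its call when the first KO library was left out (adjusted p = 0.249), without the first wild-type library (adjusted p = 0.22) and with DESeq2 (adjusted p = 0.0962). The risen members were Strn and Wwp1, and 0 were called without the first KO library, without either wild-type library and with DESeq2. In the rescue Stk24 (0.31, adjusted p = 0.0386) and Siah2 (0.44, adjusted p = 0.0416) rose over the KO, and neither was called by DESeq2 or without either KO library. None fell there in edgeR or by DESeq2, and 1 had an unadjusted p under 0.05. Among all genes, 8.35% rose and 5.88% fell in that comparison.

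Polarity and junction proteins that bind or regulate YAP changed in both directions, as did the genes tested as a whole. Of 14 tested among 15, 7 fell and 2 rose in the KO, against 23.5% and 23.2% of all genes, with a median of -0.22. Fat4, an atypical cadherin, had 10.5 and 11.0 CPM in the rescue, 15.1 and 11.9 CPM in the KO and 3.56 and 3.80 CPM in wild type (KO against wild type 1.88, SE 0.20, edgeR adjusted p = 3.2e-05). Patj, a Crumbs complex scaffold, rose (0.82, adjusted p = 0.00014). Fat1, a related cadherin, fell and was as low in the rescue, at 749 and 770 CPM, as in the KO, at 766 and 761 CPM, against 1144 and 1061 CPM in wild type (KO against wild type -0.53, adjusted p = 0.000376). Dlg1 (-0.56, adjusted p = 0.000369) and Mpp5 (-0.65, adjusted p = 0.000464), both scaffolds, fell in the KO. Without the first wild-type library 4 fell. Exons of Fat1, Fat4, Llgl1, Crb3, Stk25 and Wwp1 overlap genes on the other strand. Between rescue and KO, where 8.35% of all genes rose and 5.88% fell, Dlg1 (0.43, adjusted p = 0.0106), Mpp5 (0.41, adjusted p = 0.0307) and Llgl1 (0.42, adjusted p = 0.032) rose. Crb3 fell (-1.50, edgeR adjusted p = 0.0427), with only 11 and 5 counts in the rescue and 34 and 27 in the KO. The call was lost in 8 of 13 other fits for Crb3, in 8 of 14 for Mpp5, in 6 of 14 for Llgl1 and in 1 of 14 for Dlg1.

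Vgll4, a cofactor that competes with YAP for TEAD, fell in the KO, with 42.4 and 37.9 CPM in the rescue, 37.1 and 38.9 CPM in the KO and 55.7 and 52.3 CPM in wild type (KO against wild type -0.51, SE 0.10, edgeR adjusted p = 0.00142). Vgll1 and Vgll3 had no count in any library. None of the 4 tested genes of the TEAD and VGLL list was called in the rescue against the KO, where 14.2% of all genes were. Of the 4, 0 also had an unadjusted p under 0.05 there and 0 were called by DESeq2.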

How the data were processed

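Poly(A) RNA of 6 libraries was sequenced. STAR 2.0.4b, featureCounts 1.45 and GRCm38 are named in the submitters' processing notes; no strand setting is given in the sources used here. The authors deposited a raw count, a CPM and an RPKM value per gene, per the file headers. The deposited CPM equalled count over library total, and the deposited RPKM equalled that per kilobase. Counts were tested with edgeR 4.0.16 (R 4.3.3): TMM scaling, filterByExpr (minimum count 10; 12339 genes kept, 29049 not), glmQLFit on all 3 groups, glmQLFTest and Benjamini-Hochberg adjustment over all genes kept. CPM in the text are TMM-scaled, and RPKM are as deposited. Intervals are those of the quasi-likelihood fit at 95%. That fit shared 1 estimate of the spread among the 3 groups, though their spreads differed. The coefficient of variation between libraries, beyond counting noise, was 10.5% in the rescue, 6.1% in the KO and 5.1% in wild type. DESeq2 1.42.0, other scalings, other filters, a replicate block, fits of 2 groups and fits without each library were the alternatives. The scripts were tested on simulated data.

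Members and gene lists were chosen with earlier results of these data known. From each list, up to 5 called genes with the lowest adjusted p in KO against wild type were named, and up to 5 called in rescue against KO with a mean CPM of at least 5; other names were chosen after their values were seen. Some genes that the rule names are not reported here. Symbols came from a table that matched 40254 of 41388 identifiers. Same-numbered libraries did not deviate together (correlations 0.037, -0.153 and -0.192), so the numbers were not treated as pairs. What share of a KO difference was left in the rescue is not given, since the comparisons share libraries. Promoter sequences are from RefSeq, and protein sequences were not used here. Library totals of 7605328 to 11505983 counts limit the precision for genes with few counts.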

Additional observations from a re-analysis of the deposited data

How the results depend on the processing

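Of the members' values in other fits, 385 stayed on their side of the threshold, 14 passed it only there and 21 missed it only there, and no called member changed sign. Values of uncalled members near 0 did, for Lats2 (up to 0.03) and Ajuba (up to 0.03) in the KO against wild type and for Lats1 (up to 0.02), Ankrd1 (up to 0.04) and Amotl2 (down to -0.075) in the rescue against wild type. Many calls were lost when 1 library of 2 was left out, and the cause was not tested. Of members, 1 rose in the KO against wild type, with 0 by DESeq2 and 0 to 1 when 1 library was left out (0 without either KO or either wild-type library). In the rescue against the KO 4 members rose, with 7 under a replicate block with the rescue numbers crossed (an alternative chosen after seeing the data) and 2 to 6 without 1 library, 2 without KO replicate 2. The replicate block itself gave 3. Against wild type, 1 member was lower in the rescue, with 2 without a filter, 2 under the crossed block and 0 to 3 without 1 library. Of the other pathway genes, 12 rose in the rescue against the KO, with 7 when those 2 groups were fitted alone and 4 to 17 without 1 library. In the same comparison 1 of them fell, where 5.88% of all genes did. The count was 0 by DESeq2, under the stricter filter, under the replicate block and in the 2 groups alone. It was 3 without a filter and under the crossed block. Without the first rescue library it was higher, and without any other library lower. Against wild type 23 were lower in the rescue, and 5 to 28 without 1 library. Over all genes, 2867 rose in the KO (1686 to 3297 without 1 library). Against the KO, 1030 rose in the rescue, with 667 in the 2 groups alone and 139 to 1846 without 1 library. There 726 fell, with 378 by DESeq2, 429 under the replicate block, 1135 crossed, 377 in the 2 groups alone and 64 to 1594 without 1 library. The lowest counts came without KO replicate 2 and the highest without rescue replicate 1. Against wild type, 1263 were higher in the rescue (751 by DESeq2, 417 to 1699 without 1 library) and 1481 lower (691 to 1953), lowest without WT replicate 1. The log2 difference of Ccn2 between rescue and wild type, 0.03, changed sign to -0.38 without rescue replicate 2 (adjusted p = 0.0152) and was 0.335 without rescue replicate 1. The replicate numbers do not pair the libraries, and no GC correction was run with the block. The planned protein motifs were not run.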
